A study of Bos taurus with 48 samples.

Results

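The arrays described here compare the longissimus thoracis et lumborum (LTL) muscle of cattle at 12 and at 20 months of age, the stretch from a growing yearling to a near-mature animal. Of the 48 arrays of the study, 8 carried RNA of these ages, 4 for each, on the same 4 slides, and they were chosen by their labels alone. Each array is a 2-colour Agilent array of 60-base probes, so the 8 arrays held 16 of the 96 channels, each channel being 1 animal's muscle RNA. The animals came from 2 crosses, labelled Piedmontese and Wagyu, each bred with Hereford, and each array set one cross against the other. The labels name the muscle longissimus dorsi and the samples biopsies, give only the cross and the age of each animal as its treatment, and state no sex. For a look at array position, diet slides of the study were also used, on which each array set an animal labelled restricted against one labelled growth.

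At 12 months there were 6 animals and at 20 months 8. The 6 animals of the younger age were all measured again at 20 months, on the same slide and in the same dye: GP112, GP130, GP201 and GP285 of the Piedmontese cross and GW169 and GW179 of the Wagyu cross. GW169 filled 3 of the 8 channels at 12 months, and GW245 and GW212, measured at 20 months alone, entered no paired value. Changes are therefore the log2 intensity of an animal at 20 months minus its own at 12 months. GP130 and GW169 shared their arrays at both ages, as did GP201 and GW179.

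Postnatal skeletal muscle grows by enlarging its fibres, not by adding them, while connective tissue is laid down around the fibres and fat cells accumulate between them as marbling. Adipocytes of marbling fat make fatty acids themselves and store them in lipid droplets whose coat proteins, such as perilipin and CIDEC, are made almost only by fat cells. Wagyu cattle are known for marbling, and Piedmontese cattle for heavy muscling through a defective myostatin, the secreted protein that restrains muscle growth. In whole tissue a larger number of cells of a type and more RNA in each cannot be told apart, which holds for every cell type named here.

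All 12-month arrays lay in position 3 of their slide and all 20-month arrays in position 4, so array position and age cannot be told apart on these slides. Between 57.9% and 71.7% of spots were well above background in the 12-month channels and between 49.9% and 70.2% in the 20-month channels, the share being lower at 20 months in 7 of 8 pairs of the same slide and dye. GP112, GP130 and GW169 were scanned in one session and GP201, GP285 and GW179 in another, each session holding both ages. The muscle identity of the samples was clear in that MYOZ1, a Z-disc protein of fast fibres, had a log2 intensity of at least 17.4 in every one of the 16 channels.

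Of 13347 genes tested, 2006 changed between 12 and 20 months at an adjusted p under 0.05 (limma), which is 15% of them. The 896 that rose were 6.71% of the genes tested and the 1110 that fell were 8.32%. Most changes were small: 1481 of the 2006 were under 0.5 on the log2 scale, 40 genes rose and 24 fell by at least 1, and 1808 moved the same way in all 6 animals. The 8 channels of one age lay wholly apart from those of the other for 308 genes (2.31%), 112 higher and 196 lower at 20 months. The count of changed genes depended on the animals, being 890 without GP112, 766 without GP130, 1102 without the slide of GP201 and GW179, and 47 without the slide of GP130 and GW169. It was 370 in the first scan session alone and 0 in the second, with 3 animals in each, where 2384 genes had an unadjusted p under 0.05. With the channels only centred on their medians it was also 0, with 10 genes at an unadjusted p under 0.05.

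Most adipocyte markers rose. Of 14 listed, 13 were tested (leptin, LEP, was not), and 10 rose while none fell, against 6.71% of all genes rising, with a median change of 0.85 on the log2 scale against -0.01 over all genes. CIDEC, which fuses lipid droplets, had the largest rise of all genes. Its log2 intensity ran from 8.19 to 10.98 at 12 months with a median of 9.35, and from 10.74 to 12.88 at 20 months with a median of 11.77. All but the highest 12-month channel, that of GP112, lay below every 20-month channel. The animals' own changes ran from 1.75 in GP112 to 3.46 in GW179, and the fitted change was 2.49 ± 0.20 (SE, 6 animals), a 5.61-fold rise with an adjusted p of 0.00157.

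FABP4, the fatty acid carrier of fat cells, went from a median of 9.40 (8.38 to 11.32) to 11.31 (9.65 to 12.34), and the ranges overlapped only through GP112, which was already high at 12 months. It rose by 1.76 ± 0.22 (adjusted p = 0.00517). TRARG1, a regulator of the insulin-responsive glucose transporter, rose by 1.75 ± 0.18 (adjusted p = 0.00364), and its channels did not overlap, the highest at 12 months being 8.80 and the lowest at 20 months 8.83. TRARG1 is among the 10 that rose, but its symbol was misspelt in the list and corrected after the data were seen. PLIN1, the perilipin that coats the droplet, rose by 1.04 ± 0.17 (adjusted p = 0.00938), from a median of 8.02 (7.43 to 9.04) to one of 8.96 (8.36 to 9.86). The 6 other markers that rose gained between 0.44 and 1.22, and the 3 that did not pass were AGPAT2 at 0.30, CFD at 0.13 and PNPLA2 at -0.05. A probe that the files call ACRP30, an older name of adiponectin, was noticed after its values were seen and rose by 1.13 ± 0.21 (adjusted p = 0.0139), beside 0.86 for ADIPOQ. The 10 calls became 2 without the slide of GP130 and GW169, 5 without that of GP201 and GW179, and 6 without GP112 or without GP201.

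**Figure D1:**
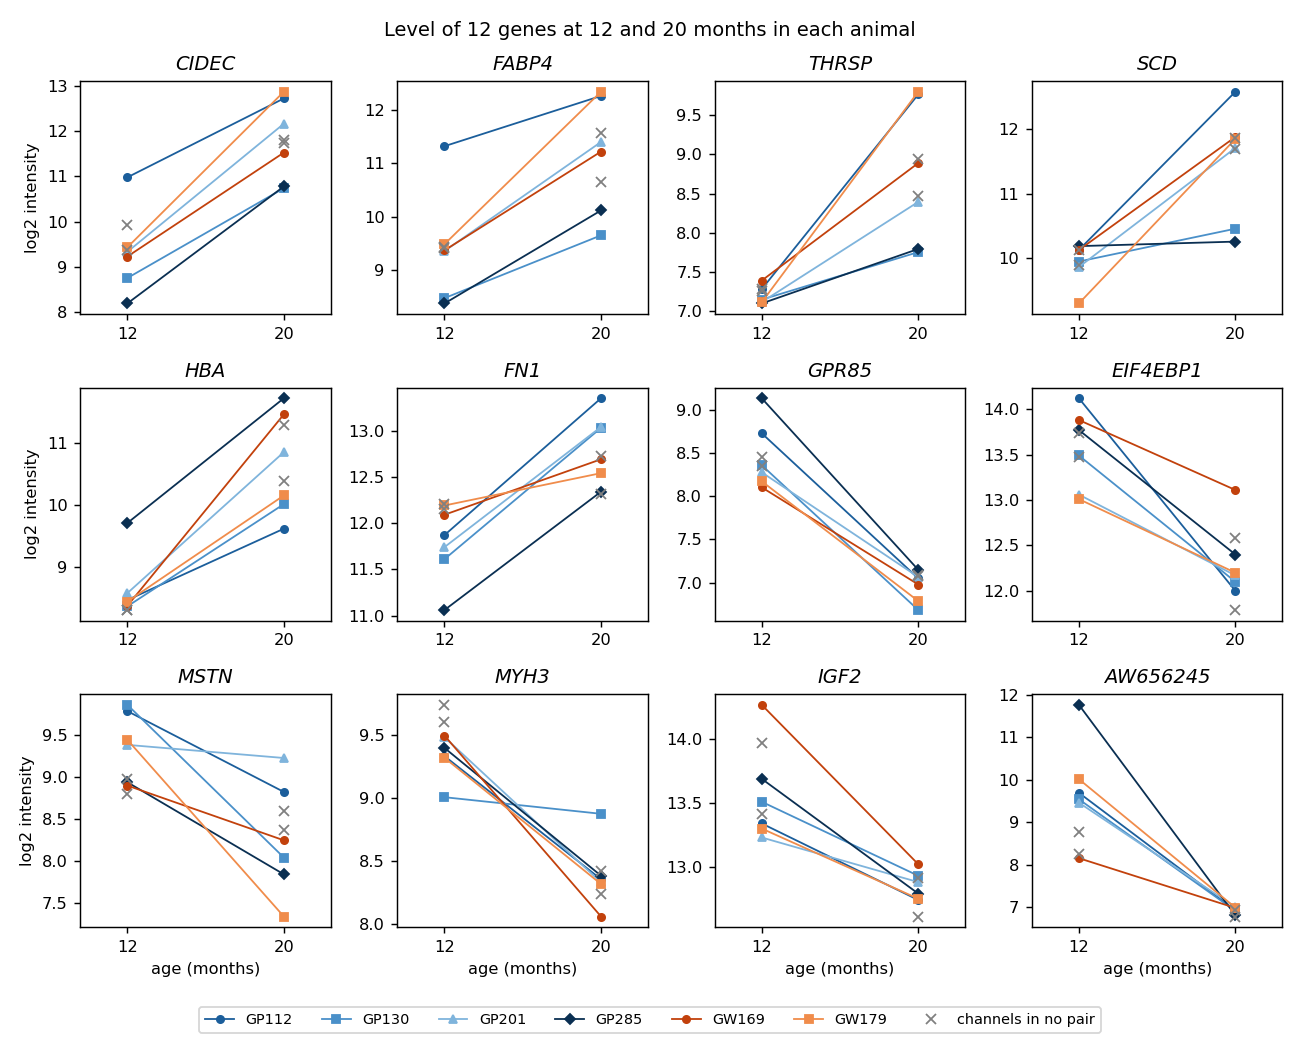
Log2 intensity at 12 and 20 months (horizontal axis) of 12 genes, 1 panel each. Lines join the 2 values of an animal on the same slide and dye, blue for the Piedmontese and orange for the Wagyu cross, and crosses are channels that entered no pair. CIDEC, FABP4, THRSP and HBA lie higher at 20 months in all 6 animals, and GPR85, EIF4EBP1, MYH3, IGF2 and AW656245 lie lower in all 6.

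Many genes of fatty acid synthesis rose too. Of 12 tested, 7 rose and none fell, against 6.71% of all genes rising, with a median change of 0.58. THRSP, a nuclear protein that drives lipogenic genes, was near background at 12 months, well above it in 4 of 8 channels, with values from 7.10 to 7.39. At 20 months it was above background in all 8, from 7.76 to 9.80 with a median of 8.68, so the channels of the 2 ages did not overlap. THRSP passed the filter on dim probes through its 20-month channels, which favoured a rise. It rose by 1.54 ± 0.28 (adjusted p = 0.014), most in GP112 (2.48) and GW179 (2.69) and least in GP130 (0.61) and GP285 (0.69). The size depended on the processing, and it was 3.04 with Agilent's own processed signals.

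SCD, which makes oleic acid from stearic acid, rose by 1.53 ± 0.33 (adjusted p = 0.0217). Its 8 channels at 12 months spanned 9.30 to 10.19 and those at 20 months 10.26 to 12.58, and the change was as small as 0.07 in GP285 and as large as 2.55 in GW179. Both of its probes above background rose, by 1.62 and 1.44. ELOVL6, which lengthens palmitate, rose by 1.21 ± 0.25, ME1, a source of the NADPH that synthesis uses, by 0.65 ± 0.08, and SREBF1, the transcription factor of the pathway, by 0.59 ± 0.10, with adjusted p of 0.0204, 0.00517 and 0.0126. The other 2 that rose were FASN at 0.88, the fatty acid synthase itself, and ACACA at 0.58. FADS1, a desaturase of polyunsaturated fatty acids, was at -0.68 and did not pass. The 2 animals with the largest rises in THRSP also had the largest in SCD and ELOVL6. The 7 calls became 0 without the slide of GP130 and GW169, and 3 without GP112 or without the slide of GP201 and GW179.

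Fatty acid uptake and oxidation, the other side of lipid metabolism, gave few calls, with 2 of 19 genes rising, against 6.71% of all genes, and a median of 0.08. Changes in this list ran from -0.23 to 1.38, and the highest did not pass. FABP3, the carrier of muscle fibres, rose by 0.83 ± 0.17 (adjusted p = 0.0176), its channels running from 11.88 to 13.59 at 12 months and from 13.38 to 14.15 at 20 months, and CPT2, a mitochondrial importer, rose by 0.37 ± 0.09 (adjusted p = 0.034), a call lost in 13 of 25 alternatives, which changed the processing or the animals used. In cholesterol synthesis and uptake INSIG1, an inhibitor of sterol synthesis, rose by 0.80 ± 0.22 (adjusted p = 0.0423), a call lost in 15 of 25 alternatives, and the other 14 genes did not pass.

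**Figure D2:**
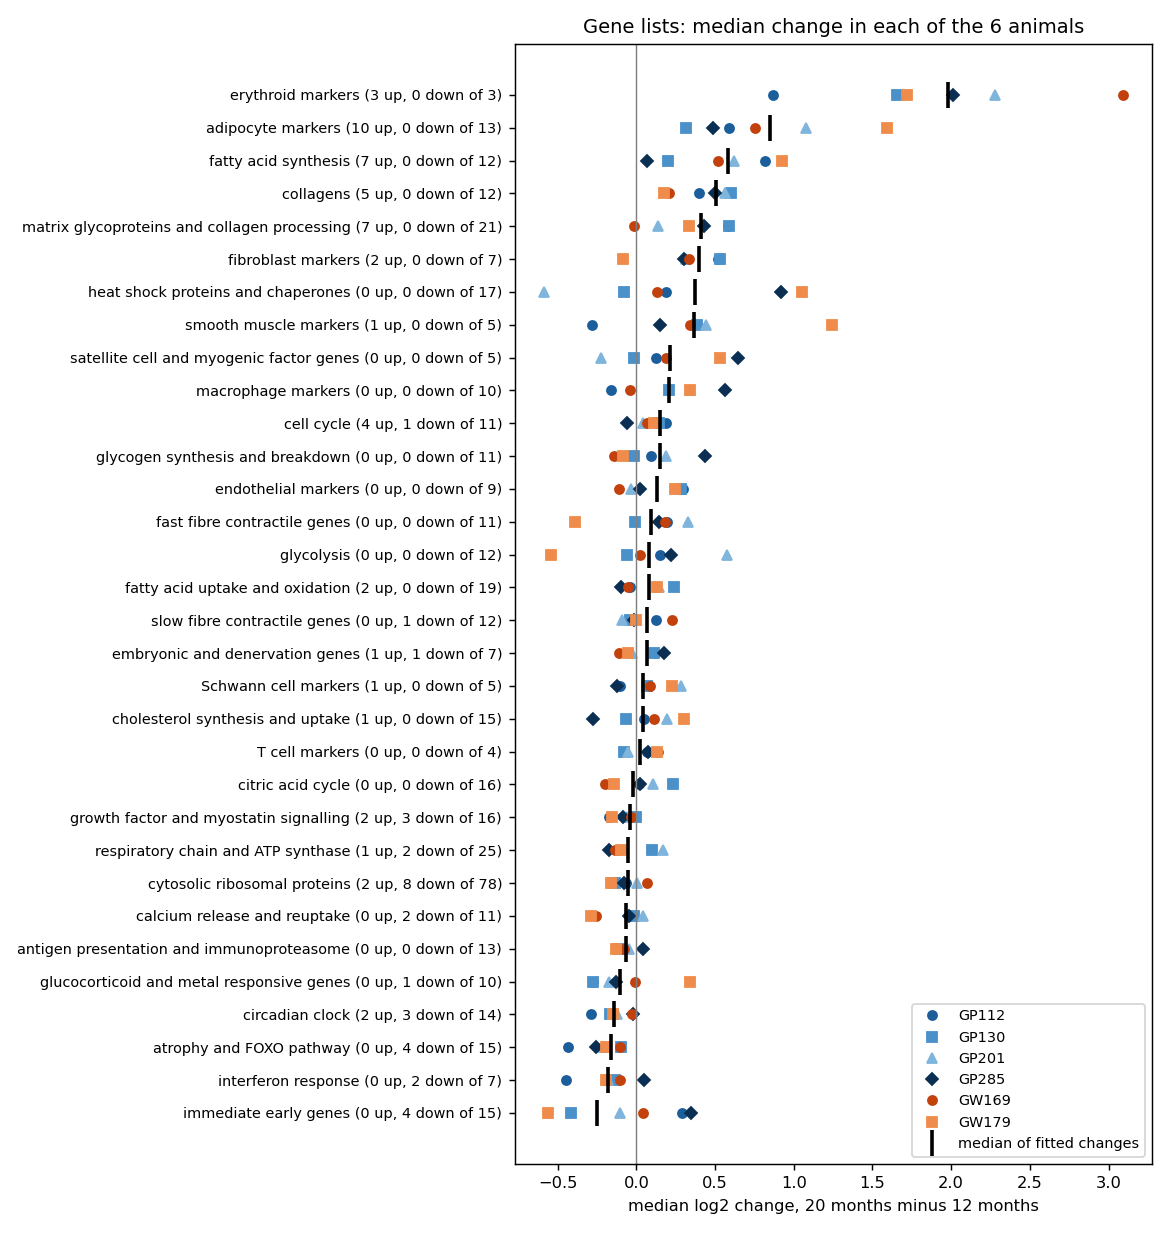
Median log2 change from 12 to 20 months (horizontal axis) of each gene list (vertical axis, with its counts of genes called higher and lower), 1 point per animal, and a bar at the median of the fitted changes. Erythroid, adipocyte, fatty acid synthesis and collagen lists lie above 0 in all 6 animals, while the fast fibre, glycolysis and heat shock lists spread to both sides of 0.

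The haemoglobin probes formed the other group at the top. The haemoglobin chains are made by red cell precursors and reticulocytes, and the erythroid list was fixed to follow blood in the tissue. All 3 tested globins rose, HBG, annotated as the gamma chain of the fetus, by 2.09 ± 0.31, HBA, the alpha chain, by 1.98 ± 0.22, and HBB, the adult beta chain, by 1.74 ± 0.25, with adjusted p of 0.00792, 0.00391 and 0.00779. Bovine globin genes are close relatives, and hybridisation of one transcript to another's probe was not tested, so the 3 cannot be taken as independent of each other. The probes behind the HBB and HBG values were these.

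HBB: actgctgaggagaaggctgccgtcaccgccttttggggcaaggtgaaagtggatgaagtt

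HBG: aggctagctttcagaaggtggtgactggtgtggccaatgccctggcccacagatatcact

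The longest run shared by these probes is 6 bases, which does not show whether either would bind the other's transcript. HBA was between 8.30 and 9.70 at 12 months with a median of 8.40, and between 9.61 and 11.72 at 20 months with a median of 10.61. The one high 12-month channel was GP285, which was also the highest at 20 months. GW169 gained the most (3.10) and GP112 the least (1.15). ALAS2, the haem synthesis enzyme of red cell precursors, did not pass the filter on dim probes. The rise was as large in the first scan session (1.97) as in the second (2.00). Without the slide of GP130 and GW169 there was 1 call in place of 3. Whether blood in the samples moved other genes was not tested.

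Several connective tissue genes rose. Of 12 collagens tested, 5 rose and none fell, with a median of 0.51, and of 21 matrix glycoproteins and collagen-processing genes 7 rose and none fell, with a median of 0.41, against 6.71% rising and a median of -0.01 over all genes. FN1, fibronectin, went from a median of 11.98 (11.06 to 12.21) to 12.71 (12.31 to 13.35) with no overlap of channels, and rose by 1.07 ± 0.16 (adjusted p = 0.00792). LUM, a collagen-binding proteoglycan, rose by 0.80 ± 0.10, SPARC, a matrix glycoprotein, by 0.78 ± 0.17, and BGN, another proteoglycan, by 0.77 ± 0.11, with adjusted p of 0.00517, 0.0238 and 0.00792.

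Among collagens the rises that passed were in minor and network-forming chains, though all 12 tested had positive changes, the lowest being 0.20. COL5A3 rose by 0.55 ± 0.09, COL5A2 by 0.53 ± 0.10, COL6A3 by 0.45 ± 0.07 and COL6A2 by 0.24 ± 0.06, with adjusted p of 0.0115, 0.0159, 0.00792 and 0.034, and COL4A2 of the basement membrane rose by 0.48. The call of COL6A2 was lost in 13 of 25 alternatives. The major fibrillar chains COL1A1 and COL3A1, singled out after their values were seen, did not pass, and the animals differed widely in them. Their estimates were larger than those of the collagens that passed, and a difference between the classes was not tested. COL1A1 was at 0.80 ± 0.29 (adjusted p = 0.103) with changes from -0.25 to 1.99, and COL3A1 at 0.66 ± 0.20 (adjusted p = 0.0617) with changes from 0.03 to 1.38. Among fibroblast markers 2 of 7 rose, against 6.71% of all genes, MFAP5 by 0.69 ± 0.11 and DPT by 0.46 ± 0.07, with adjusted p of 0.00856 and 0.00792. On diet slides of the same study, where positions 3 and 4 held the same diet time, position 4 was above position 3 by a median of 0.27 for the collagens and 0.42 for the matrix list, with no gene called. It was above by 0.76 for FN1, 0.72 for SPARC, 0.59 for BGN, 1.10 for COL1A1 and 1.03 for COL1A2. Other genes of these lists showed little or the reverse, with COL5A3 at 0.04, LUM at -0.13 and COL6A2 at -0.14. For the fibroblast markers the median was 0.26, with MFAP5 at 0.49 and DPT at -0.05. The part of array position in the matrix and fibroblast results was not tested further. The 5 collagen and 7 matrix calls became 0 and 1 without the slide of GP130 and GW169, 2 and 3 without GP130, 3 of each without GP112, and 3 and 5 without GP285.

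Other cell types gave few calls, beside 6.71% of all genes rising and 8.32% falling. None of 9 endothelial genes passed, CDH5 being at 0.39 (adjusted p = 0.0558) and KDR at 0.34 (adjusted p = 0.0638). None of 10 macrophage genes passed, with C1QB at 0.58 and C1QA at 0.35 (adjusted p = 0.0529 and 0.0616), and none of 4 T cell genes, CD3E being at 0.12. Of 5 smooth muscle genes ACTA2 rose by 0.51 ± 0.14 (adjusted p = 0.0461), and of 5 Schwann cell genes S100B, also made by fat cells, rose by 0.54 ± 0.07 (adjusted p = 0.00652), while MBP, a myelin protein, was at -0.18 and did not pass. Of 5 satellite cell and myogenic factor genes none passed, MYOD1 being at 0.60 (adjusted p = 0.0748) and MYOG at 0.27.

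The other large rises were in genes of no list. TP53INP2, an autophagy and transcription cofactor of muscle, rose by 1.75 ± 0.20 (adjusted p = 0.00391), from a median of 11.11 (10.24 to 11.93) to 12.68 (11.86 to 13.75). CCDC3, a secreted protein of fat and endothelium, rose by 1.71 ± 0.26 (adjusted p = 0.00835) without overlap of channels, though position 4 also exceeded position 3 by 1.29 on the diet slides. ATOH8, a basic helix-loop-helix factor, rose by 1.50 ± 0.42 (adjusted p = 0.0476), by 0.68 in the first scan session and 2.32 in the second, and CHN1, a GTPase-activating protein for Rac, by 1.50 ± 0.23 (adjusted p = 0.00901). The call of ATOH8 was lost in 17 of 25 alternatives. The change with the lowest p was PRSS23, a serine protease, singled out for that after the values were seen. It rose by 1.36 ± 0.07 (adjusted p = 0.000398), every 20-month channel (11.77 to 12.92) lying above every 12-month channel (10.68 to 11.50). AVEN, an inhibitor of apoptosis picked in the same way, rose by 0.89 ± 0.05, by 0.81 to 1.03 in the 6 animals (adjusted p = 0.000877).

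The largest fall belonged to AW656245, a transcript that the files describe only as unidentified, and which is shown by the first 30 bases of its probe because it has no gene name.

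AW656245: gccacggggaggagtcggatgcccagtgga

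Its probe was well above background in all 8 channels at 12 months, from 8.15 to 11.76, and in none at 20 months, where the values lay between 6.77 and 6.99. GP285 was the highest at 12 months and GW169 the lowest. Over the 6 paired animals its intensity at 12 months was at least 7.14-fold higher than the 20-month background level, with measured means of 9.77 and 6.93, and the paired fit gave an adjusted p of 0.00646. The probe passed the filter only through its 12-month channels, so a difference was built into its being tested. GW169 had the smallest measured fall, 1.17 down to the background level. Over the other ages the mean was 7.23 at 3 months, 6.85 at 7, 8.06 at 25 and 6.88 at 30 (8 channels each), so the 12- and 25-month levels stood above the other ages. Arrays of 3, 12 and 25 months lay in odd slide positions and those of 7, 20 and 30 months in even ones, and the part of position was not tested. The gene was singled out after its values were seen.

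Among named genes, GPR85, an orphan G protein-coupled receptor known from the brain, fell by 1.52 ± 0.11 (adjusted p = 0.00119), from 8.11 to 9.14 at 12 months to 6.68 to 7.15 at 20 months, where 1 of 8 channels was well above background. GPR85 passed the filter through its 12-month channels, and its log2 change depended on the processing, from -1.29 with the post-natal arrays normalized alone to -4.16 with Agilent's processed signals. SH3RF2, a RING-finger scaffold protein, fell by 1.35 ± 0.10 (adjusted p = 0.00119), and its channels did not overlap either, at 10.63 to 11.93 and 9.45 to 10.54. ANKRD37, an ankyrin repeat protein induced by low oxygen, fell by 1.64 ± 0.24 (adjusted p = 0.00792), with ranges of 10.48 to 11.40 and 8.15 to 10.57 that overlapped slightly. ARHGAP26, a GTPase-activating protein, fell by 1.44 ± 0.25 (adjusted p = 0.0114), LAT2, an adaptor of immune receptor signalling, by 1.32 ± 0.22 (adjusted p = 0.0103), and SOCS2, a brake on growth hormone signalling, by 1.22 ± 0.24 (adjusted p = 0.0171). KIAA0753, a centriolar protein, KIAA1522, MOB3B, a kinase-binding protein, and ALG13, a glycosylation enzyme, fell by 1.21, 1.17, 1.14 and 1.12. RABIF, a Rab GTPase partner singled out for its low p, fell by 0.96 ± 0.06 (adjusted p = 0.000941), by 0.82 to 1.16 in the 6 animals.

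Of 16 growth signalling genes 2 rose and 3 fell, against 6.71% and 8.32% of all genes, with a median of -0.04. MSTN, myostatin itself, fell by 1.13 ± 0.24 (adjusted p = 0.0204). Its channels ran from 8.80 to 9.86 at 12 months (median 9.18) and from 7.34 to 9.22 at 20 months (median 8.31). The fall was 2.10 in GW179 and 1.81 in GP130 but only 0.16 in GP201, so the ranges overlapped. IGF2, insulin-like growth factor 2, fell by 0.71 ± 0.11 (adjusted p = 0.00936), from 13.23 to 14.27 at 12 months to 12.61 to 13.02 at 20 months with no overlap, and IGF2R, the receptor that clears it, fell by 0.32. IGFBP6, which binds IGF2, rose by 0.59 ± 0.11 (adjusted p = 0.0145), and SMAD7, an inhibitor of the pathway of myostatin and TGF-beta, by 0.44 ± 0.11 (adjusted p = 0.031). IGF1, IGF1R and GHR were at 0.02, -0.11 and 0.11 and did not pass.

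In the atrophy and FOXO list 4 of 15 fell and none rose, against 8.32% of all genes falling. EIF4EBP1, which holds back cap-dependent translation when it is not phosphorylated, fell by 1.23 ± 0.17 (adjusted p = 0.00652), from a median of 13.61 (13.01 to 14.12) to 12.19 (11.79 to 13.11). MAP1LC3B, an autophagosome protein, fell by 0.51 ± 0.08, and the mitophagy receptors BNIP3 and BNIP3L by 0.37 ± 0.07 and 0.29 ± 0.06, with adjusted p of 0.00951, 0.0135 and 0.017. The ubiquitin ligases that define muscle wasting, TRIM63 and FBXO32, were at -0.03 and 0.06 and did not pass. The 4 calls became 0 without the slide of GP130 and GW169 and 2 with Agilent's own processed signals.

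The contractile and energy genes showed few changes, beside 6.71% of all genes rising and 8.32% falling. None of 11 fast fibre genes passed, PVALB being at -0.34 and MYOZ1 at 0.16, and of 12 slow fibre genes TPM3, a tropomyosin, fell by 0.53 ± 0.12 (adjusted p = 0.026). None of 12 glycolytic, 11 glycogen or 16 citric acid cycle genes passed, the lowest adjusted p being those of LDHB (0.383) and LDHA (0.391), GYG1 (0.12) and GYS1 (0.157), and IDH3B (0.0619) and SUCLA2 (0.0702). GYS1 averaged a probe above background in every channel, at 0.38, and a dim probe at -0.03, and it did not pass in 23 of 25 alternatives. Of 25 genes of the respiratory chain COX5B and ATP5F1C fell by 0.31 ± 0.06 and 0.29 ± 0.06 and NDUFS1 rose by 0.41 ± 0.11, with adjusted p of 0.014, 0.0208 and 0.0426. None of these 3 calls was made with Agilent's processed signals, and that of NDUFS1 was lost in 16 of 25 alternatives. The animals did not move together here: the median of the glycolytic list ran from -0.54 in GW179 to 0.58 in GP201, and that of the fast fibre list from -0.39 to 0.33 in the same animals.

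Of 11 genes of calcium handling 2 fell, and of 7 genes of embryonic and denervated muscle 1 rose and 1 fell. Over all genes 8.32% fell and 6.71% rose. CACNB1, the beta subunit of the voltage sensor, fell by 0.60 ± 0.12, and CASQ1, the calcium store protein of fast fibres, by 0.37 ± 0.06, with adjusted p of 0.0162 and 0.0128, the other 9 not passing. MYH3, the embryonic myosin heavy chain, fell by 0.95 ± 0.15 (adjusted p = 0.00901), from 9.01 to 9.74 at 12 months to 8.06 to 8.88 at 20 months without overlap. GP130 was the exception, with a fall of 0.13 against 0.98 or more in the others. CHRNG, the fetal subunit of the acetylcholine receptor, rose by 0.70 ± 0.11 (adjusted p = 0.00853), while CHRND, another subunit, named after its value was seen, fell by 1.11 ± 0.22 (adjusted p = 0.0169).

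Of 15 immediate early genes 4 fell: EGR1 by 1.50 ± 0.42, IER3 by 0.81 ± 0.08, IER2 by 0.57 ± 0.15 and ZFP36 by 0.39 ± 0.07, with adjusted p of 0.0476, 0.00364, 0.0405 and 0.0132, against 8.32% of all genes falling. The list did not fall as a whole: 7 changes were positive and 8 negative, the highest being ATF3 at 2.40, which did not pass. The animals' medians ran from -0.56 to 0.35. The median of the list was -0.25, and on the diet slides the median of position 4 minus position 3 was -0.43 for it, with no gene called. There ZFP36 was at -0.47 and IER2 at -0.41, while EGR1 was at -0.01 and IER3 at 0.04. The part of array position in these falls was not tested further. The calls of EGR1 and IER2 were each lost in 14 of 25 alternatives. EGR1, a factor induced within minutes of stimulation, ranged from 11.21 to 12.64 at 12 months and from 9.37 to 12.12 at 20 months, and in GP112 it did not fall (0.05). In the circadian list of 14, NR1D2, TEF and PER3 fell by 0.44 ± 0.07, 0.67 ± 0.18 and 0.86 ± 0.21, and BHLHE40 rose by 0.71 ± 0.14, with adjusted p of 0.00951, 0.0388, 0.0331 and 0.0163, and CLOCK rose by 0.32. The 3 falls and 2 rises stood against 8.32% and 6.71% of all genes, and the call of TEF was lost in 15 of 25 alternatives. BMAL1, CIART and NR1D1 were not analysed here, and the hour of sampling was not given in the sources used here. CIRBP, the cold-inducible RNA-binding protein, noticed after the values were seen, fell by 1.07 ± 0.17 (adjusted p = 0.00959) from 12.95 to 13.81 to a range of 11.99 to 12.77.

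Of 11 cell cycle genes 4 rose, against 6.71% of all genes, and MCM4 fell by 0.23. TOP2A, which untangles DNA at division, rose by 0.76 ± 0.13, RRM2, which makes deoxynucleotides, by 0.70 ± 0.09, CCNB2, a mitotic cyclin, by 0.53 ± 0.09 and FOXM1, a mitotic transcription factor, by 0.35 ± 0.08, with adjusted p of 0.0123, 0.00598, 0.0118 and 0.0312. RRM2, CCNB2 and FOXM1 were well above background in no more than 4 of 8 channels at 12 months and in 6 or 7 at 20 months, so the sizes of their changes are not firm. They passed the filter on dim probes only with the help of their 20-month channels, which favoured a rise among the genes tested. The count of 4 is therefore not a like comparison with the share over all genes. They were 2.10, 1.77 and 1.35 with Agilent's processed signals. Of the list, 9 of the 20 listed genes, CDK1 and CCNB1 among them, were not tested. Of 7 interferon genes ISG15 fell by 0.66 ± 0.13 and IRF9 by 0.32 ± 0.07 (adjusted p = 0.0183 and 0.0204), against 8.32% of all genes falling. On the diet slides the median of position 4 minus position 3 was -0.25 for the interferon list. ISG15 was at -0.46 and IRF9 at -0.09 there, with no gene called, and the part of array position was not tested. Of 13 antigen presentation genes none passed, BOLA-DMB being at -0.26 and PSMB10 at -0.20. Of 78 cytosolic ribosomal protein genes 8 fell and 2 rose, against 8.32% and 6.71% of all genes, with a median of -0.06, and with Agilent's processed signals 1 fell and 0 rose. RPS27 fell by 0.50 ± 0.08, RPL13A by 0.39 ± 0.08, RPS20 by 0.37 ± 0.08 and RPL23 by 0.23 ± 0.06, the last a call lost in 14 of 25 alternatives. CEBPD, a factor induced by glucocorticoids, fell by 0.75 ± 0.21 (adjusted p = 0.0469), alone among 10 such genes, and the call was lost in 18 of 25 alternatives, quantile normalization among them.

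Some genes moved widely but not alike. None of 17 heat shock proteins and chaperones passed, although their median change was 0.37, and the animals' medians ran from -0.59 in GP201 to 1.05 in GW179. HSPB7, a small heat shock protein of muscle, was at 0.82 ± 0.26 (adjusted p = 0.0699) and HSPA5, the chaperone of the endoplasmic reticulum, at 0.30 ± 0.11 (adjusted p = 0.114). ATF3, a stress-induced transcription factor, had the largest fitted change that did not pass, 2.40 ± 0.76 (adjusted p = 0.0672), with animals between -0.26 and 5.65. TNFRSF12A, a receptor of injured muscle, was at 1.68 (-0.87 to 5.01), IFRD1, a stress-induced regulator of muscle repair, at 1.45 (-0.09 to 5.06), PDK4, the kinase that turns off pyruvate dehydrogenase in fasting, at 1.38 (-0.51 to 4.02), TNMD, tenomodulin of tendon, at 1.57 (-0.07 to 4.20) and ACTC1, cardiac actin, at 0.33 (-3.88 to 2.54). These were chosen by the size of their spread and none passed. Across the 13347 genes the correlation of changes between animals ran from 0.19 (GP201 with GP285) to 0.66 (GP112 with GP130), which is a description across genes that share arrays and normalization. The spread of changes over genes was largest in GW179 (SD 0.50) and smallest in GW169 (SD 0.25). Repeat channels of GW169 at 12 months differed with SDs over genes of 0.15 to 0.26.

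The 2 crosses were not separated by their change. No gene passed the test of the change in the Wagyu minus that in the Piedmontese cross (0 of 13347, 0%, limma), and 703 had an unadjusted p under 0.05. With 2 Wagyu animals against 4 the interval was wide: for CIDEC the difference was 0.59 (95% interval -0.32 to 1.50), for FABP4 0.87 (0.01 to 1.73) and for MSTN -0.37 (-1.55 to 0.82). The interval of FABP4 is not adjusted for the number of genes. The median difference was 0.48 for the adipocyte markers and -0.51 for glycolysis, against 0.01 over all genes. The 20-month channels of GW245 and GW212, set beside GW169 at 12 months on the same slide and dye, stood 1.81 and 2.43 higher for CIDEC, 1.24 and 2.14 higher for FABP4, and 0.38 and 0.42 lower for MSTN. Some other genes went against their paired change there. IGFBP6 stood 0.345 and 0.252 lower, CHRNG 0.13 and 0.12 lower, and PER3 0.25 and 0.01 higher. COL1A1 stood 1.15 and 0.41 lower and COL3A1 0.51 and 0.49 lower. Different animals are set side by side here, with no test.

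The same 6 animals were measured again at 25 and 30 months, on other slides, which lets the change from 12 to 20 months be set against a later interval. There too the ages differed in array position, 25 months lying in odd and 30 months in even positions. The difference between the 2 changes passed for 510 of 13336 genes (3.82%), 252 higher and 258 lower in the earlier interval. The globins differed most: HBA went up by 1.98 and later down by a mean of 3.31 (difference 5.26, adjusted p = 0.000942), HBB by 1.74 and 3.17 (4.88, 0.00165) and HBG by 2.09 and 3.72 (5.76, 0.00216). CHN1 went from a rise of 1.50 to a mean change of -1.62 (difference 3.10, adjusted p = 0.0149). CIDEC, which rose by 2.49, had a later mean change of 0.06 (difference 2.48, adjusted p = 0.0086). In the adipocyte list the median later change was 0.14 and in the fatty acid synthesis list -0.60, and 4 and 5 of their genes passed the test of the difference.

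The largest differences the other way were in PDK4, with a later change of 4.12 (difference -2.71, adjusted p = 0.017), CEBPD with 1.68 (-2.40, 0.000942), ANGPTL4, a lipase inhibitor raised in fasting, with 2.62 (-2.36, 0.00486), EIF4EBP1 with 0.80 (-2.05, 0.00519) and ARRDC2, an arrestin-domain protein, with 1.24 (-2.02, 0.00486). CEBPD, EIF4EBP1 and ARRDC2 fell between 12 and 20 months, ARRDC2 by 0.79 ± 0.21 (adjusted p = 0.0394, a call lost in 13 of 25 alternatives). ANGPTL4 at 0.29 and PDK4 did not pass in that interval.

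**Figure D3:**
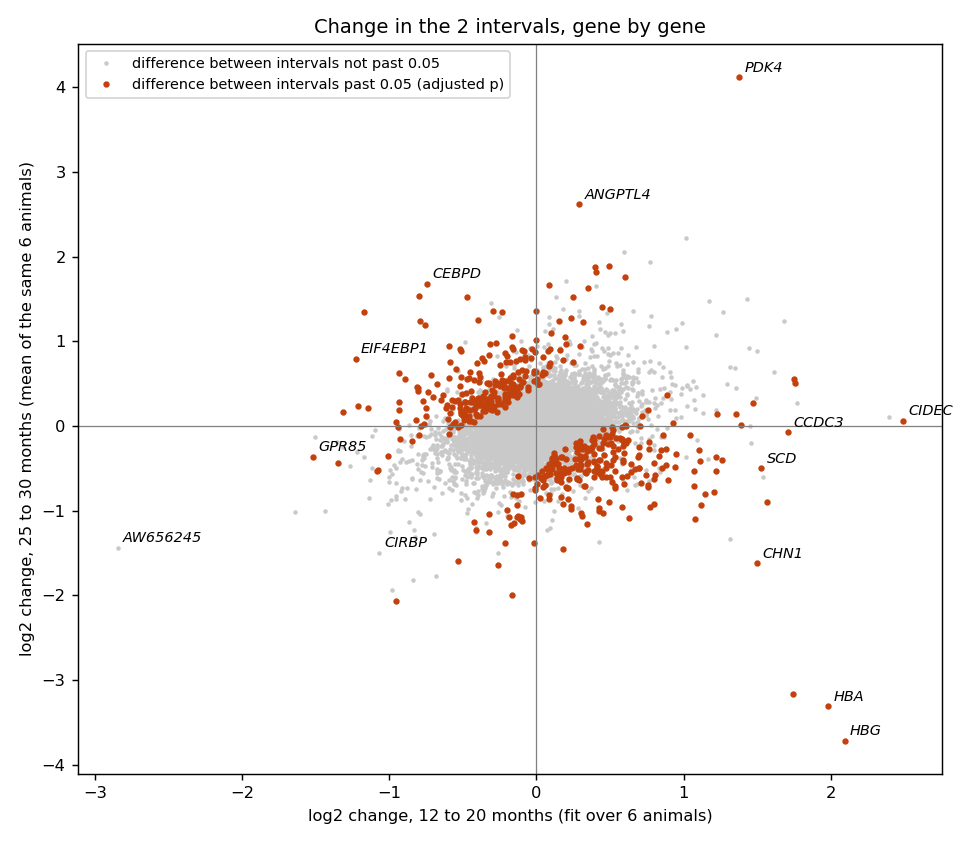
Log2 change from 12 to 20 months (horizontal axis) and mean log2 change from 25 to 30 months (vertical axis) in the same 6 animals, 1 point per gene, orange where the difference between the intervals passed an adjusted p of 0.05. The globins lie at the lower right, having risen in the first interval and being lower at 30 than at 25 months, and CIDEC lies at the far right near 0 on the vertical axis.

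Set over 6 ages, several of the genes did not follow a single direction. The mean of CIDEC was 9.43 ± 0.90 at 3 months, 10.62 ± 1.25 at 7, 9.40 ± 0.82 at 12, 11.80 ± 0.79 at 20, 13.35 ± 0.89 at 25 and 13.25 ± 1.38 at 30 (SD, 8 channels each), so that 12 months was as low as 3. HBA was 11.30 ± 1.67, 9.46 ± 0.61, 8.56 ± 0.47, 10.68 ± 0.76, 12.13 ± 0.78 and 8.93 ± 0.50 at the same ages. MYH3 was 9.42 ± 0.22 at 12 and 9.21 ± 0.74 at 25 months, against 8.37 ± 0.23 at 20 and 8.40 ± 0.25 at 30. CIRBP showed the same order, at 13.40 ± 0.27 and 13.43 ± 0.33 against 12.29 ± 0.28 and 12.05 ± 0.25. At 3 and 7 months the means were 9.32 and 8.86 for MYH3 and 13.14 and 12.35 for CIRBP. Arrays of 3, 12 and 25 months lay in odd slide positions and those of 7, 20 and 30 months in even ones. Position and age therefore alternated together over all these ages, and the part of position was not tested. The 25- and 30-month arrays lay on other slides than the younger ages, so these levels are given as a description with no test.

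**Figure D4:**
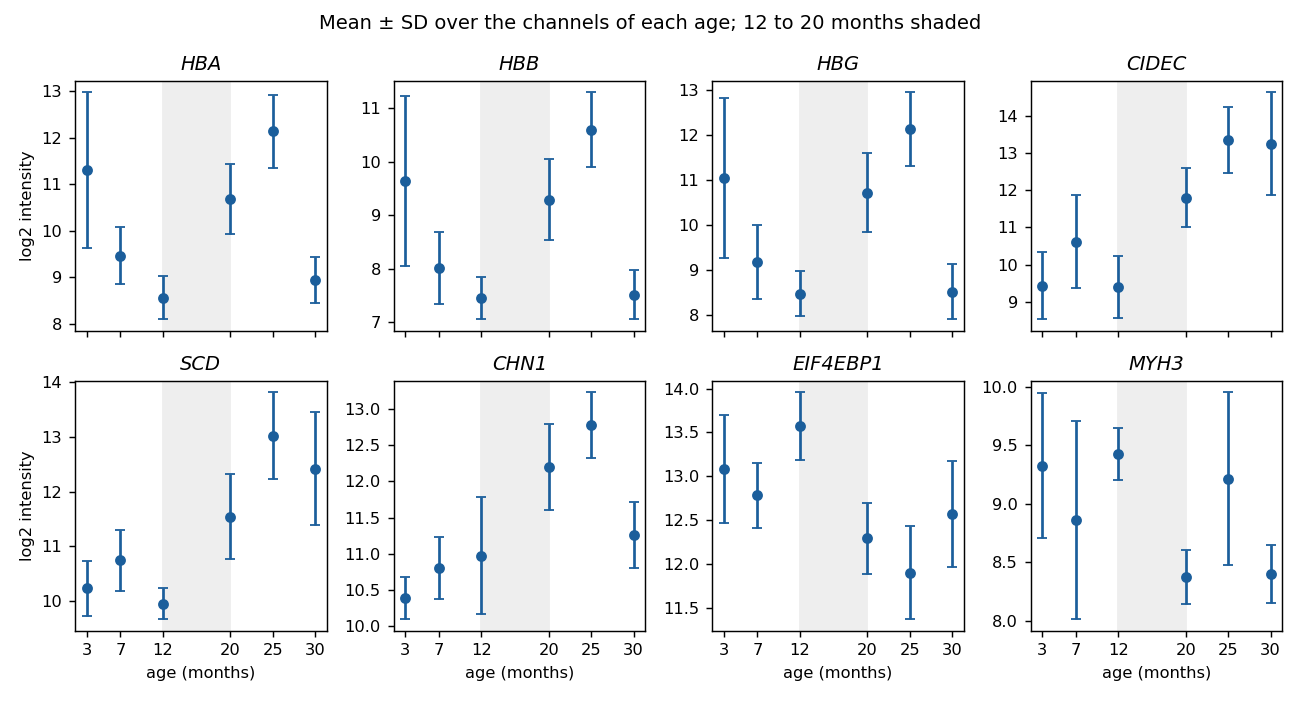
Mean log2 intensity with its SD (vertical axis) over the 8 channels of each age from 3 to 30 months (horizontal axis) for 8 genes, with 12 to 20 months shaded. HBA, HBB and HBG are low at 12 and 30 months and high at 25, CIDEC and SCD rise from 12 to 25 months, and MYH3 is higher at 12 and 25 than at 20 and 30.

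On the 3 diet slides, where positions 3 and 4 of a slide held the same diet time, no gene of 13345 passed a test of position 4 minus position 3 (0%, limma), and 1024 had an unadjusted p under 0.05. CIDEC was at -0.47, FABP4 at -0.41, HBA at -0.30 and MSTN at 0.17 in that comparison, and the medians of the adipocyte and fatty acid synthesis lists were -0.12 and 0.04. These slides held other animals, restricted and growth animals on each array, and another scan session, so the comparison bounds no position effect on the slides of 12 and 20 months.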

How the data were processed

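RNA of LTL muscle was hybridised to 2-colour Agilent arrays, and the authors scanned them and deposited the output of Agilent Feature Extraction (9.5.1 in the submitters' processing notes, a later release in the file headers) as signal intensity and flags per spot; the authors' own normalized log ratio table was not used. Mean signal intensity of both channels was background-corrected (normexp, offset 50, local background, limma 3.58.1, R 4.3.3), outlier spots were dropped, loess was applied within and Aquantile between all 48 arrays, and spots of a probe and then probes of a gene were averaged on the log2 scale. A probe was kept if 8 or more of the 16 channels of 12 and 20 months lay well above background and all 16 gave a value (14246 probes, 13347 genes). Of 21475 probes, 16645 were matched to RefSeq genes of ARS-UCD2.0, for names only, and the others keep the name in the files.

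The 6 paired differences were fitted with limma, with arrays shared by 2 animals as a random block (correlation 0.0243) and Benjamini-Hochberg adjustment over all genes. The later-interval fit added a term for the dye, since the dyes of 25 and 30 months were exchanged, 3 animals each way. The number of animals limits precision. Pairing rests on the animal code in the labels. Labels do not give separate RNA extractions. The fits were tested on simulated data. Named were the 12 largest rises and 12 largest falls among genes called with 1 sign in all animals, up to 4 called genes of each of 32 lists (otherwise the 2 of lowest p) and the 5 largest differences each way in the other comparisons. The ages, lists and tests were chosen with earlier results of these data known, and 1 misspelt list symbol, that of TRARG1, was corrected afterwards. Genes singled out after their values were seen are said to be so. Alternatives covered normalization, filter, probe choice, pairing, slides, animals and, added after seeing the data, the scan session.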

Additional observations from a re-analysis of the deposited data

Results flagged for a closer look

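In 10 of 115 named genes the change of 1 animal stood apart from the other 5 by more than Dixon's 95% critical value for 6 values, which chance alone does in about 1 of 20 groups. The log2 changes were ACTA2 1.28 in GW179 (nearest 0.47), COL5A3 1.03 in GW179 (nearest 0.57), HSPB7 -0.75 in GP201 (nearest 0.93), IGFBP6 1.20 in GP112 (nearest 0.58), MYH3 -0.13 in GP130 (nearest -0.98), PRSS23 1.04 in GW169 (nearest 1.36), RPL23 -0.43 in GP130 (nearest -0.23), SMAD7 -0.14 in GP201 (nearest 0.43), SPARC -0.21 in GW169 (nearest 0.79), ZFP36 -0.080 in GP285 (nearest -0.41). These values were not left out of any fit, and their cause was not tested.

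For 33 named genes the change from 12 to 20 months differed from that of 25 to 30 months in the same animals (limma, adjusted p under 0.05 for the difference itself). The difference, earlier minus later, on the log2 scale was positive for HBG (5.76), HBA (5.26), HBB (4.88), CHN1 (3.10), CIDEC (2.48), TNMD (2.43), ELOVL6 (2.08), SCD (2.03), CCDC3 (1.81), FN1 (1.78), COL1A1 (1.71), TOP2A (1.45), BHLHE40 (1.36), TRARG1 (1.29), LUM (1.22), TP53INP2 (1.22), RRM2 (1.20), CHRNG (1.19), CCNB2 (0.91), NDUFS1 (0.86), AVEN (0.53). It was negative for PDK4 (-2.71), CEBPD (-2.40), ANGPTL4 (-2.36), EIF4EBP1 (-2.05), ARRDC2 (-2.02), LAT2 (-1.55), KIAA0753 (-1.53), MOB3B (-1.40), GPR85 (-1.20), SH3RF2 (-0.90), ZFP36 (-0.89), RPL13A (-0.72). TNMD and COL1A1 did not pass within the earlier interval itself, nor did ANGPTL4 and PDK4. The later ages lay on other slides with the dyes exchanged, and 25 and 30 months also differed in array position. The part of these in the differences was not tested.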

How the results depend on the processing

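The alternatives differed most with the animals and the normalization. The count of changed genes between 12 and 20 months (2006) was 0 with channels only centred on their medians, as was that of the later-interval difference (510), and the cause was not tested. Under that centring the median of all genes in the later-interval difference was -0.58. No named gene that had passed changed sign in any alternative. It was 3284 with the scan session as a term, 370 in the first session and 0 in the second alone. Leaving out each slide gave 47 to 1369 and leaving out each animal 766 to 1675. Where 1 shared array remained, its correlation could not be estimated and no block was used. Without the replicate block, that is with animals unpaired, 2145 genes passed, 1610 of them among the 2006, and list calls moved by over 1.5 times in 6 of 28 cases. The later-interval count was 228 with no filter and 132 to 202 without a slide. With Agilent's processed signals 1421 genes passed, 52.4% of them higher against 44.7%, and 1 gene passed in the position comparison, where leaving out a diet slide gave 0 or 1. The cross comparison stayed at 0. Over 115 named genes and 25 alternatives, 2315 values kept their side of the threshold, 492 lost it and 54 gained it. Signal over background (2.03 to 3.17 in the 16 channels) limits the dim genes.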
